A study of Homo sapiens with 120 samples.

Results

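The cytosolic ribosomal protein genes were followed through 120 RNA sequencing libraries of CFPAC-1, an established human pancreatic ductal adenocarcinoma line. Members were the rows of the deposited expression table named RPL or RPS with a number and an optional A, X or L, together with RPLP1, RPLP2, RPSA and FAU. Pseudogene names, mitochondrial MRP names and the RPS4Y names were left out. The rule matched 77 of 30504 rows, and 74 distinct genes were left after each repeated name was taken at its row of highest mean, 42 of the large subunit and 32 of the small subunit. RPL4, RPL7A, RPL8, RPL10, RPL17, RPL36A, RPLP0 and RPS20 were not analysed here. Values are FPKM, fragments scaled by transcript length and library size, so levels can be set beside each other between genes of different length.

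Cells were taken either from microraft arrays, on which cells grow on small detachable supports, or from the Fluidigm C1, a microfluidic chip that captures cells in chambers. In the isolation experiment the untreated groups were rafts with 2 cells, 1 cell or no cell (10 libraries each), C1 chambers with 2 cells, 1 cell or no cell (5 each) and bulk RNA of about 10000 cells (4 libraries). Of 7 water libraries, 3 accompany these groups and 1 each is labelled with the untreated, saline, 2 nM and 5 nM arms of the gemcitabine experiment. The rafts came in a first and a second set of 5 per group, told apart by their titles. In the gemcitabine experiment, cells on rafts received nothing, saline, 2 nM gemcitabine or 5 nM gemcitabine, a deoxycytidine analogue that blocks DNA synthesis. Each of the 4 arms held 8 rafts labelled proliferative and 8 labelled nonproliferative. All libraries are of 1 cell line, the labels give no cell number for the rafts of the gemcitabine experiment, and they name no separate cultures. Each p-value therefore measures the spread between rafts, and a raft with fewer cells and a raft with less RNA per cell cannot be told apart.

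Cytosolic ribosomes join a small subunit, which reads the mRNA, to a large subunit, which forms the peptide bond and holds the exit tunnel. Their proteins are made in nearly equal numbers, and most of their mRNAs start with a C followed by a run of pyrimidines, the 5′ terminal oligopyrimidine tract, through which mTOR signalling and LARP1 set their translation. Dividing cells spend much of their synthesis on ribosomes, and ribosomal protein mRNAs are among the most abundant in epithelial tumour lines.

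The start of transcription carried this tract in most members with an annotated start. In RefSeq (GRCh38.p14), 59 of the 74 members had an entry, and a C at the start followed by C or T for a run of at least 5 bases was found in 43 of them, 72.9%, against 5.14% of 27305 gene symbols in the same table. A C stood at the start base of 78.0% of members and 17.9% of all symbols. The motif searched was this run alone, on the gene's own strand and from the start base on, and a gene with several starts was taken at the longest run. The 4 most and the 4 least abundant members with an entry are shown, to set strongly and weakly expressed genes beside each other, with 10 bases before the start and 20 from it on, and with the run in capitals. RPS18 lies at chr6:33272065-33272094 on the plus strand, RPS14 at chr5:150449720-150449749 on the minus strand, RPL41 at chr12:56116623-56116652 on the plus strand and RPS27 at chr1:153990752-153990781 on the plus strand. RPL13 lies at chr16:89560672-89560701, RPL27A at chr11:8682782-8682811 and RPL28 at chr19:55385922-55385951, all on the plus strand, and RPL10L at chr14:46651762-46651791 on the minus strand.
RPS18: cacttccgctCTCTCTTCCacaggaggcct
RPS14: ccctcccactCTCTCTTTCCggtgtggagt
RPL41: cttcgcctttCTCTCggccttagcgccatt
RPS27: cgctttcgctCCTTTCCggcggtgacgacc
RPL13: gggccgcttcCTTTCCgctcggctgttttc
RPL27A: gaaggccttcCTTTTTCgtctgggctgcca
RPL28: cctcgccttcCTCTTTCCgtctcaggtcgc
RPL10L: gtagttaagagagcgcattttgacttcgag
The run was 9, 10, 5 and 7 bases long in the 4 abundant genes and 6, 7 and 8 bases in RPL13, RPL27A and RPL28. RPL10L, the intronless copy of RPL10 known from testis, started with G and held no run. Among the members with no entry were RPL23, RPL23A, RPL30, RPL37, RPL39L, RPL3L, RPL5, RPL7, RPS15A and RPS2.

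Genes detected, at an FPKM of 1 or more, numbered 6416 to 9772 in 2-cell rafts, 4804 to 8461 in 1-cell rafts, 8097 to 11752 in 2-cell C1 captures, 8560 to 10474 in 1-cell C1 captures and 8570 to 10581 in bulk RNA. Empty rafts reached 1301 genes, water 2097 (in the saline arm's library) and empty C1 chambers 7953. In the gemcitabine experiment the number ran from 7 to 10424, and 52 of 64 libraries passed 1000. Of the epithelial markers in the table, KRT7, KRT8, KRT18, EPCAM, CDH1 and CLDN4 were each detected in all 4 bulk libraries, and KRT19 was not analysed here. Of 11 markers of blood, endothelial, connective and skin cells, 9 were listed at 0 in bulk RNA, among them PTPRC, CD3E, VWF, COL1A1 and COL3A1, while CD14 reached 2.26 FPKM and KRT10 averaged 140 FPKM. PTPRC stood at 1.43 to 8.98 FPKM in all 5 1-cell C1 captures. Read depth is unknown. The titles name no library pool, and their index sequences repeat between arms and between rafts and C1 captures. Differences between arms, or between isolation methods, therefore cannot be told apart from differences in how libraries were prepared and pooled.

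In bulk RNA, 72 of the 74 members were expressed, and they spanned from 64.4 to 6961 FPKM. Their median was 1153 FPKM with quartiles of 670 and 1936, against a median of 7.96 FPKM over the 10767 genes at 1 or more, and 33 members stood among the 100 most abundant rows. RPS18, of the head of the small subunit, had 8852, 6832, 5742 and 6416 FPKM in the 4 libraries. RPS14, of the small subunit platform, had 7950, 5891, 5700 and 5405 FPKM. RPL41, which encodes the shortest member with a coding region of 75 bases, had 7496, 5590, 4224 and 4738 FPKM. These ranges overlapped, as did those of RPS27 (mean 4746 ± 1299 FPKM, SD, n = 4), RPL7 (4694 ± 1514) and RPL19 (3895 ± 742), which complete the 6 highest. Of the 73 pairs of neighbours in the order of bulk means, 71 had overlapping ranges, so the order is resolved only between distant members.

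At the low end, RPL28 averaged 64.4 ± 21.0 FPKM, RPL27A 67.9 ± 24.4, RPL39L 136 ± 28.8 and RPL13 174 ± 15.4 (SD, n = 4 each). RPL3L and RPL10L were listed at 0 in all 4 bulk libraries and were the only members under 1 FPKM there. RPL3L, the heart and skeletal muscle copy of RPL3, reached at most 3.54 FPKM in cells captured on the C1, where 3 of 10 libraries passed 1. In the gemcitabine experiment it reached 22.4 FPKM in 1 proliferative raft, passed 1 in 2 nonproliferative rafts with up to 14.5 FPKM, and was listed at 0 in the others with at least 1000 genes. RPL10L was listed at 0 in all 120 libraries. The copies therefore differed widely from their parent genes, RPL3 averaging 1025 ± 186 FPKM and RPL39 1766 ± 820 FPKM against RPL39L at 136. RPS27L, a p53 target that differs little from RPS27, averaged 292 ± 151 FPKM. Over the expressed members the median of mean bulk levels was 1072 FPKM for the 40 of the large subunit and 1292 FPKM for the 32 of the small subunit. Many members have processed pseudogenes or near-identical copies, so the split of reads among copies is uncertain for each of them.

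Single cells kept nearly the whole set. Between 71 and 72 members were detected in each 1-cell raft and between 71 and 73 in each 1-cell C1 capture, against 72 in each bulk library. Of the 74 members, 71 were detected in all 10 1-cell rafts, while 17.1% of genes with a bulk FPKM of 1 or more were. In the 5 1-cell C1 captures the same number of members, 71, compared with 35.2% of genes. Members had a median SD between cells of 0.56 on the log2(FPKM + 1) scale in 1-cell rafts, 0.47 in 1-cell C1 captures and 0.33 between bulk libraries, where all genes at 1 FPKM or more in bulk had 1.67, 1.36 and 0.59. High and low genes differ in this spread in any library, so the contrast describes abundant against mostly scarce genes.

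**Figure D1:**
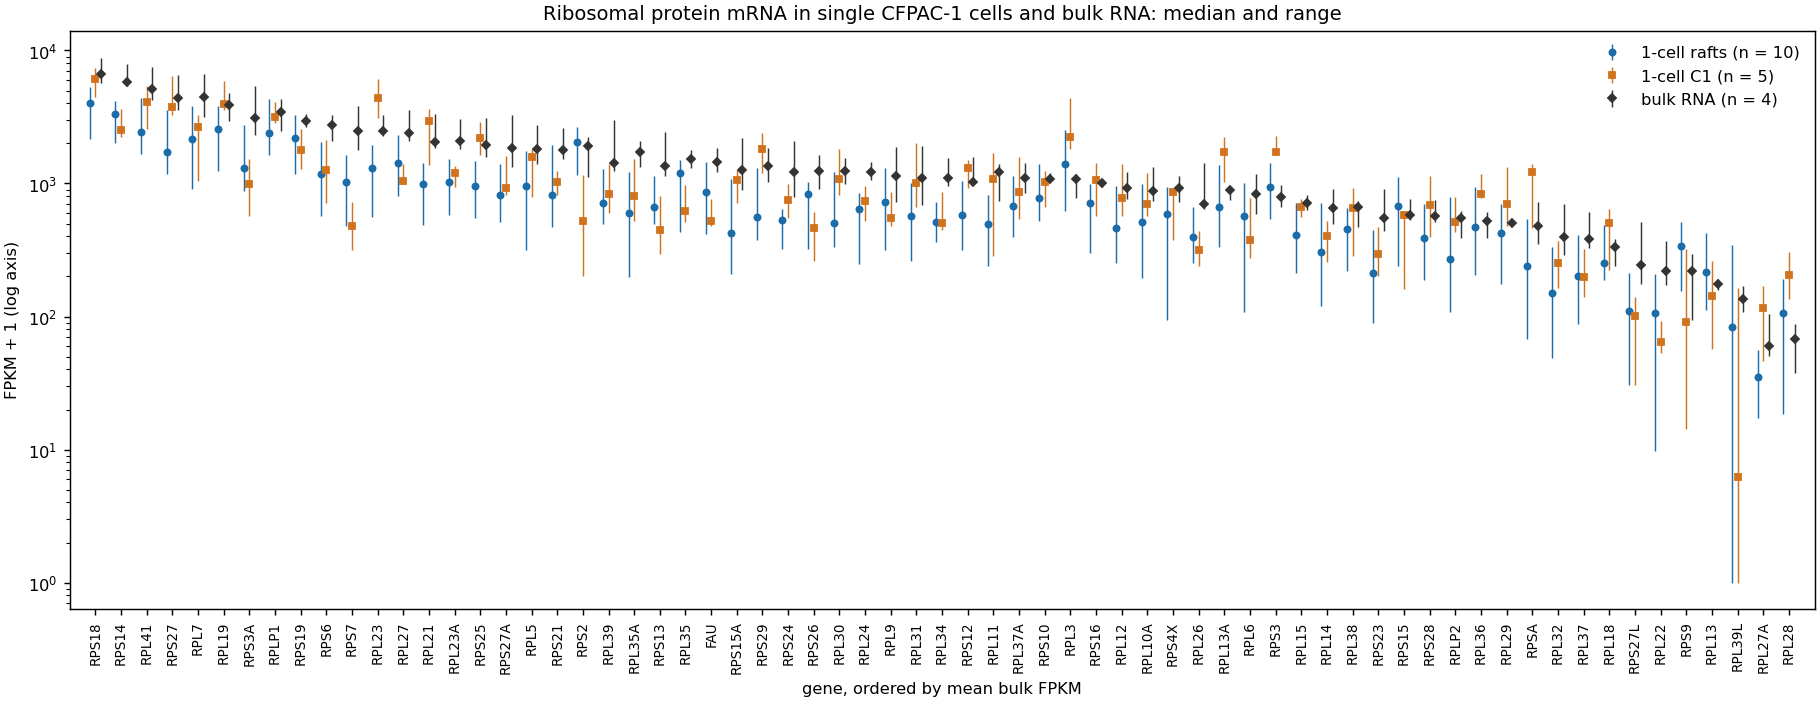
FPKM + 1 on a log axis for 67 of the 72 members expressed in bulk RNA, ordered by mean bulk FPKM, with medians as symbols and lowest to highest library as bars in 10 1-cell rafts, 5 1-cell C1 captures and 4 bulk libraries. The middle members lie close together, with quartiles of 670 and 1936 FPKM in bulk, and RPL39L is the only one whose bar reaches 0 FPKM, in both kinds of single cell.

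The members took 6.64% to 12.3% of the FPKM total in 1-cell rafts (median 9.93%), 11.5% to 18.6% in 1-cell C1 captures (median 14.9%) and 13.0% to 18.8% in bulk RNA (median 15.1%). Paired cells gave 8.95% to 11.8% in rafts and 11.3% to 14.9% in C1 chambers. The rank order among members followed bulk with a Spearman rho of 0.79 to 0.90 in 1-cell rafts and 0.69 to 0.75 in 1-cell C1 captures, a description across genes that share each library.

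The comparison of microrafts with the C1 asks whether the way a cell is picked changes its profile. Each library is 1 cell and no cultures are named, so each group counts as 1 sample and no test was made. The median member was lower in rafts, with a difference of -0.46 in mean log2(FPKM + 1) between 1-cell rafts and 1-cell C1 captures. The library medians behind it had an SD of 0.42 over the 10 rafts, and the difference was -0.46 with the first and -0.52 with the second raft set. All 10176 genes had a median of -0.27. With a pseudocount of 0.1 in place of 1 the medians were -0.46 over members and -0.68 over all genes. Of 72 members, 4 were higher by a log2 size of 1 or more, a mark that 25.9% of all genes passed, and 13 were lower, as were 34.7% of all genes.

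RPS2, which lines the mRNA entry with RPS3 and RPS9, ran from 1163 to 2653 FPKM in 1-cell rafts (median 2062), against 199, 277, 1020, 521 and 1163 FPKM in the C1 captures, a difference of 1.97. The lowest raft lay just above the highest capture only at the second decimal, so the groups touch. RPS9 ran from 154 to 512 FPKM in rafts (median 337), against 85.6, 13.3, 320, 131 and 90.5 FPKM in captures (difference 1.88), and the groups overlapped. RPL39L, the copy of RPL39 best known from the testis, had the largest difference, 2.87. It ran from 0 to 341 FPKM in rafts (median 82.9) and stood at 0, 22.8, 163, 2.55 and 5.19 FPKM in captures. A single capture was thus above the raft median and the other 4 were below 23 FPKM, while 9 of 10 rafts detected the gene. RPS7 (1.16), which binds MDM2, and RPL13 (0.87) complete the 5 highest.

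In the other direction RPSA, also known as the laminin receptor, ran from 67.2 to 542 FPKM in rafts (median 237), against 460, 1350, 1213, 683 and 1393 FPKM in captures, a difference of -2.06. RPL23, which faces the small subunit and binds MDM2, ran from 559 to 1934 FPKM in rafts (median 1303), against 3104, 4368, 4809, 3758 and 6088 FPKM in captures (-1.83). The ranges of RPL23 did not overlap, and those of RPSA did. RPL27A (-1.62) and RPS29 (-1.53) were also among the 5 lowest. Ranges did not overlap for 5 of 72 members, RPS2 above and 4 below, RPL23, RPS25 and RPS3 among them, and for 9.38% of all genes.

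Against bulk RNA, 65 of 72 members were lower in 1-cell rafts, with a median difference of -0.99 (all 10532 genes -0.60). No member was higher by a log2 size of 1 or more, a mark that 7.04% of genes passed, and 34 were lower by it, as were 34.6% of genes. The raft sets gave -0.96 and -0.95, each set against all bulk libraries together. RPS15A had the largest decrease, with 208 to 1081 FPKM in rafts (median 427), against 2194, 1402, 887 and 1144 FPKM in bulk (-1.55). RPS27L (-1.52), RPL22 (-1.49), RPL32 (-1.45) and RPS23 (-1.42) followed. RPS9 was the highest at 0.73, followed by RPL28 (0.58), RPL3 (0.48), RPL13 (0.35) and RPS3 (0.24). Ranges of 13 members did not overlap, all lower in rafts, among them RPS18, RPS14, RPS27, RPS6 and RPL23, against 3.38% of all genes in either direction. RPS6, the S6 kinase substrate, ran from 566 to 2050 FPKM in rafts (median 1168), against 3269, 2746, 2073 and 2770 FPKM in bulk.

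In 1-cell C1 captures 51 of 72 members were lower than in bulk RNA, with a median of -0.45 (all 11229 genes -0.27). With a pseudocount of 0.1 the medians were -0.45 over members and -0.61 over all genes. By a log2 size of 1 or more, 4 members were higher, as were 26.2% of genes, and 19 were lower, as were 35.2%. RPL28 had 134, 165, 295, 205 and 307 FPKM in captures, against 87.5, 69.0, 64.3 and 36.6 FPKM in bulk (1.76). RPL3 (1.45), which reaches towards the peptidyl transferase centre, RPS3 (1.24) and RPSA (0.94) were also among the 5 highest. RPL39L was the lowest at -3.80, before RPS7 (-2.41), RPS3A (-1.82), RPS27L (-1.81) and RPS2 (-1.78). RPS7 had 353, 601, 477, 315 and 727 FPKM in captures, against 3795, 2845, 1777 and 2083 FPKM in bulk, with no overlap. Ranges did not overlap for 23 members, 6 above and 17 below, and for 27.4% of all genes.

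The size of the raft decrease ran with base composition. Coding regions from GENCODE release 29, read for names and sequence content only, were matched for 73 of 74 members, with a GC content of 40.3% (RPS27L) to 63.4%. Across 71 members the Spearman rho of coding GC with the difference between 1-cell rafts and bulk was 0.74, against 0.43 across 8803 genes. With members ordered by GC content the median difference was -1.16 in the lowest 24 members, -1.09 in the middle 24 and -0.44 in the highest 23. For 1-cell C1 captures against bulk the rho was 0.39 across members and 0.18 across 8791 genes, and for rafts against captures it was -0.05 across members. All genes of a comparison share its libraries and the same bulk values, and the part of base composition in the differences was not tested.

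**Figure D2:**
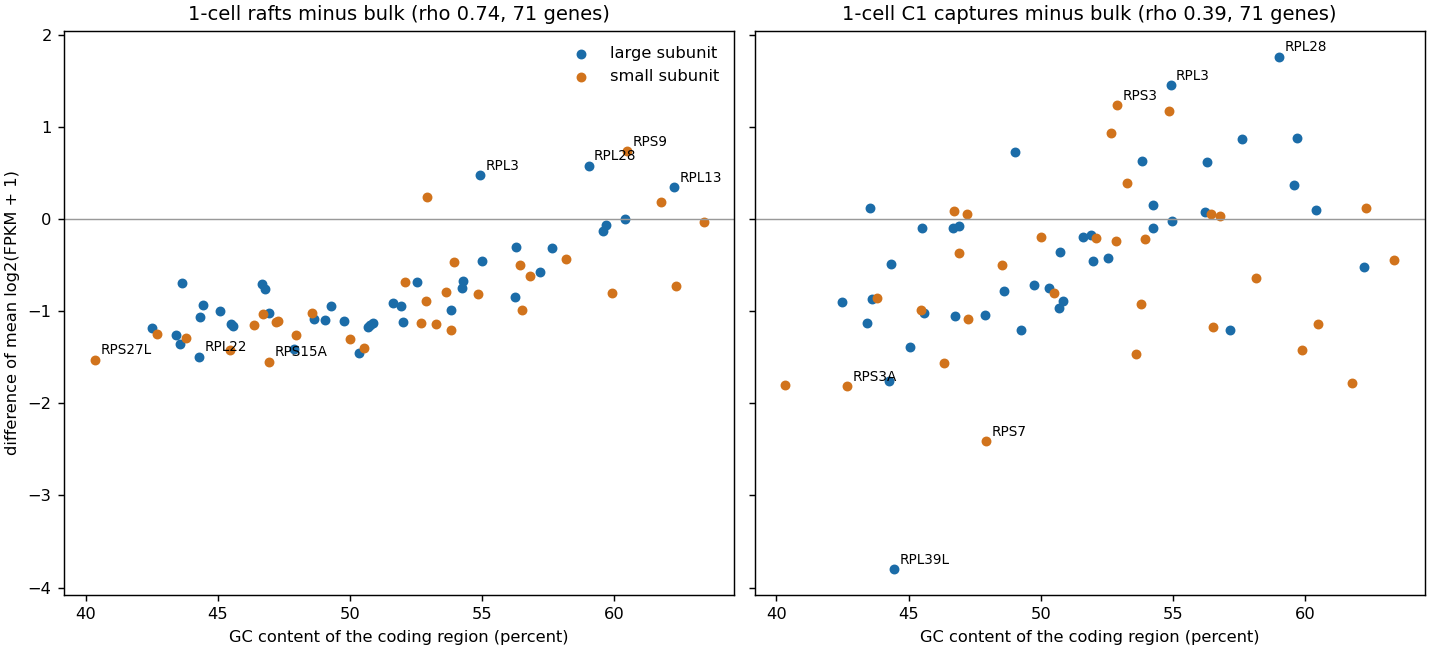
Difference of mean log2(FPKM + 1) from bulk RNA against coding GC content in percent for 71 members, in 1-cell rafts (left) and 1-cell C1 captures (right), coloured by subunit. In rafts RPS9, RPL28 and RPL13 lie above 0 at high GC content, FAU (-0.80) and RPS28 (-0.73) lie below 0 at similar GC content, and RPS27L, RPL22 and RPS15A are among the lowest.

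The comparison of 2 cells with 1 cell on a raft had a median member difference of 0.19, with 61 of 72 members higher in 2-cell rafts, and all 10660 genes had a median of 0.40. The difference is the mean of those within each raft set, and FPKM is relative to the library total. No member passed a log2 size of 1, whereas 21.1% of genes were higher and 1.39% lower by it. The median was 0.04 within the first raft set and 0.27 within the second, with an SD of 0.20 over 2-cell rafts. RPL32 (0.63), RPLP2 (0.54), RPL35A (0.53), RPL18 (0.52) and RPS9 (0.50) were highest, and RPS27L (-0.34), RPL9 (-0.31), RPS19 (-0.13), RPL34 (-0.10) and RPL31 (-0.08) lowest. RPLP2, of the stalk that recruits elongation factors, had 242 to 630 FPKM in 2-cell rafts (median 410) and 107 to 796 FPKM in 1-cell rafts (median 272). The ranges of every member overlapped, and 0.00938% of genes had ranges that did not.

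While 1-cell rafts held 71 or 72 members, empty rafts held 0 to 14 and the 7 water libraries of both experiments 1 to 24. The members' share of the FPKM total was 0% to 59.5% in empty rafts. The highest share came from 3 members, of which RPS19 made up 48.3%. Empty C1 chambers held 20 to 54 members with 1.93% to 25.8% of the total, and RPS28 or RPS27 led the 2 with most members. A share of FPKM alone thus does not tell a cell from a blank, and the number of members detected was lower in every blank than in every 1-cell or 2-cell library of the isolation experiment.

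**Figure D3:**
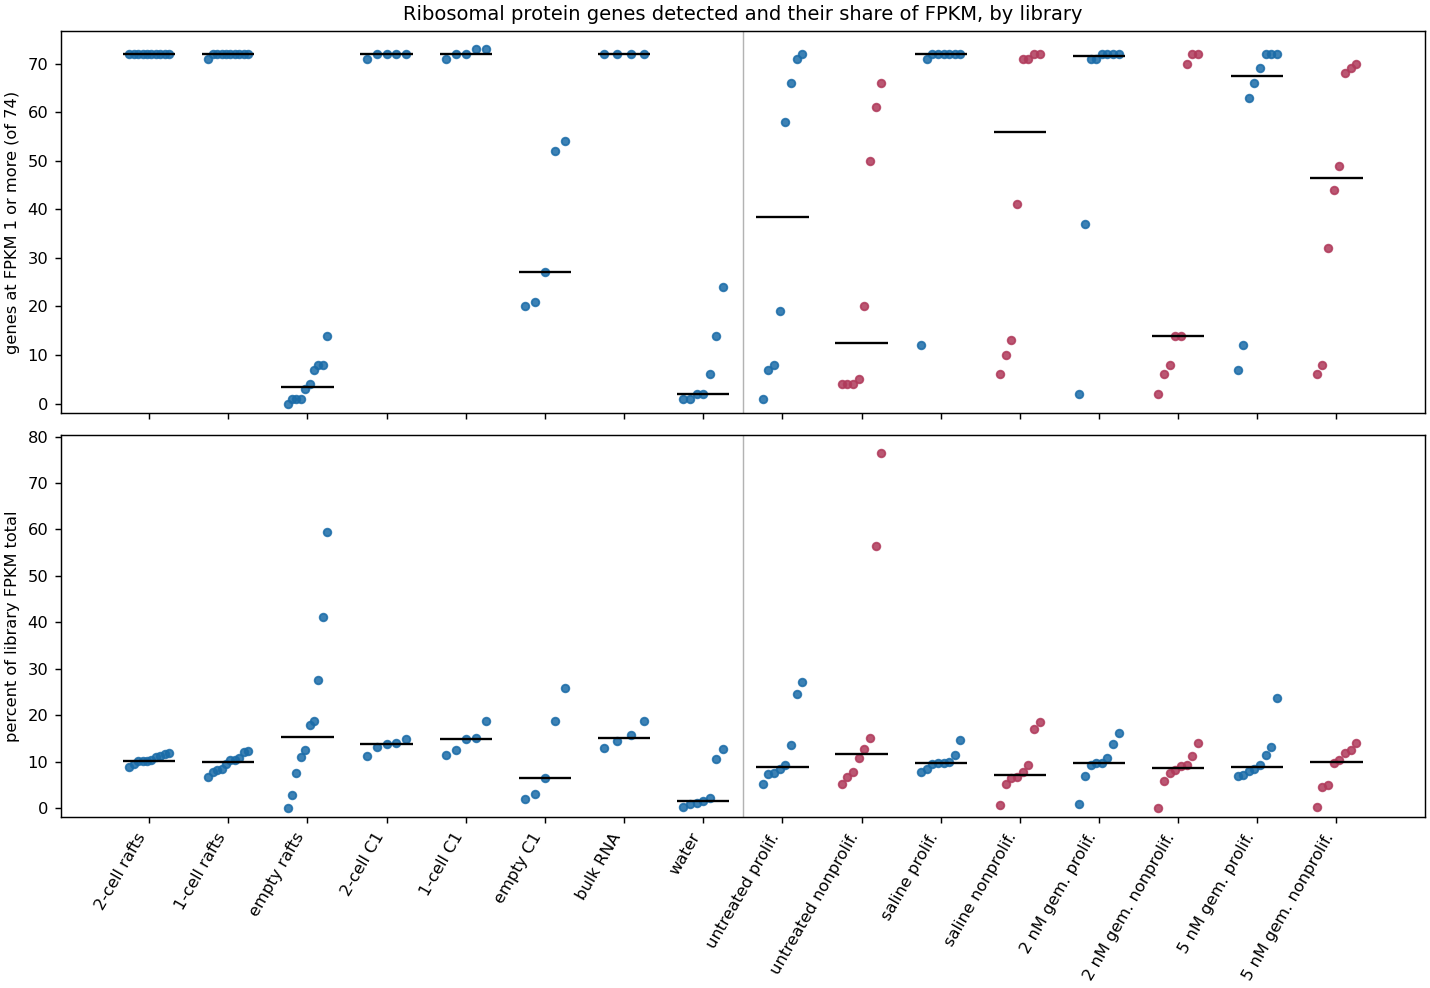
Members detected at an FPKM of 1 or more (top, of 74) and their percent of the library FPKM total (bottom), 1 point per library with the group median as a line, and nonproliferative rafts in red. The water column pools libraries of both experiments. Cells and bulk RNA of the isolation experiment hold 71 to 73 members, blanks 0 to 54, and rafts of the gemcitabine experiment fall mostly near 70 or below 20.

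In the gemcitabine experiment the members were present almost together or hardly at all. At least 60 members were detected in 34 of 64 libraries and at most 20 in 23, leaving 7 between. Proliferative rafts had at least 60 in 22 of 32 libraries and at most 20 in 8, and nonproliferative rafts had at least 60 in 12 of 32 and at most 20 in 15. By arm, at least 60 members were found in 3 of 8 proliferative and 2 of 8 nonproliferative rafts without treatment, 7 and 4 with saline, 6 and 3 at 2 nM gemcitabine and 6 and 3 at 5 nM. In these 34 libraries members took 6.55% to 23.8% of the total (median 9.39%), against 6.64% to 12.3% in 1-cell rafts (median 9.93%). Single members could fill poor libraries: RPL7 alone was 99.9% of the members' sum in 1 untreated nonproliferative raft, where 4 members made up 76.4% of all FPKM.

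On the log2(FPKM + 1) scale members averaged higher in proliferative rafts, while the median of their share of the FPKM total differed little. The share had a median of 9.53% in all 32 proliferative and 9.18% in all 32 nonproliferative libraries. Its means were 10.9% and 12.4% in the same order. Averaged over the 4 arms, 39 of 72 members passed limma's test (Benjamini-Hochberg adjusted p under 0.05 over 11560 genes), all of them higher in proliferative rafts, where 11.4% of all genes were higher and 0.753% lower. The median log2 difference was 3.18 over members and 0.58 over all genes, and all 72 members had a positive one. On this scale a gene listed at 0 in a library falls by its whole log2 level there. Members had a median bulk level of 1153 FPKM, against 7.96 FPKM over the 10767 genes at 1 or more. The part of abundance in the difference was not tested. Members are short, with a median coding length of 459 bases against 1323 over all matched genes. The rho of the difference with coding length was -0.34 across 9460 genes and 0.25 across 71 members. The part of length in the difference was not tested. The fit used the 52 libraries with at least 1000 genes, 26 of each class. This mark does not tell a cell from a blank, as 5 of 10 empty rafts, 4 of 5 empty C1 chambers and 1 of 7 water libraries also passed it. Within the fit, at least 60 members were detected in 22 proliferative and 12 nonproliferative libraries, and at most 20 in 2 and 9. The contrast thus holds many nonproliferative libraries in which a member is listed at 0.

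The median difference was smaller in libraries that resemble bulk RNA. A Spearman rho of at least 0.25 to mean bulk, taken over 10692 genes without the members, was reached by 34 libraries, 22 proliferative and 12 nonproliferative. These bulk-like libraries share 33 with the 34 that held at least 60 members. Choosing by rho thus nearly chooses the libraries in which members are present, and the smaller median cannot be read apart from that choice. Among the bulk-like libraries 4 members, FAU, RPLP1 and RPS9 among them, passed the same test, as did 0.714% of all genes in the same direction. The median was 0.46 over members, with 47 of 72 positive, and 0.32 over all genes. When the genes detected per library entered the fit of all 52 as a covariate, 5 members passed, as did 1.86% of all genes in the same direction, and the median was 2.33 over members and 0.15 over all genes. Genes detected moved with the class, with a median of 3826 in all 32 proliferative and 1988 in all 32 nonproliferative libraries, and its part in the difference was not tested. The count of 4 became 7 without untreated nonproliferative replicate 4, and FAU, listed at 0 in that library, was then no longer among the called members. It was 5 without untreated nonproliferative replicate 7, and RPLP1 was then not called. The count was 8 without untreated proliferative replicate 8 and 4 to 6 without any other single library.

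**Figure D4:**
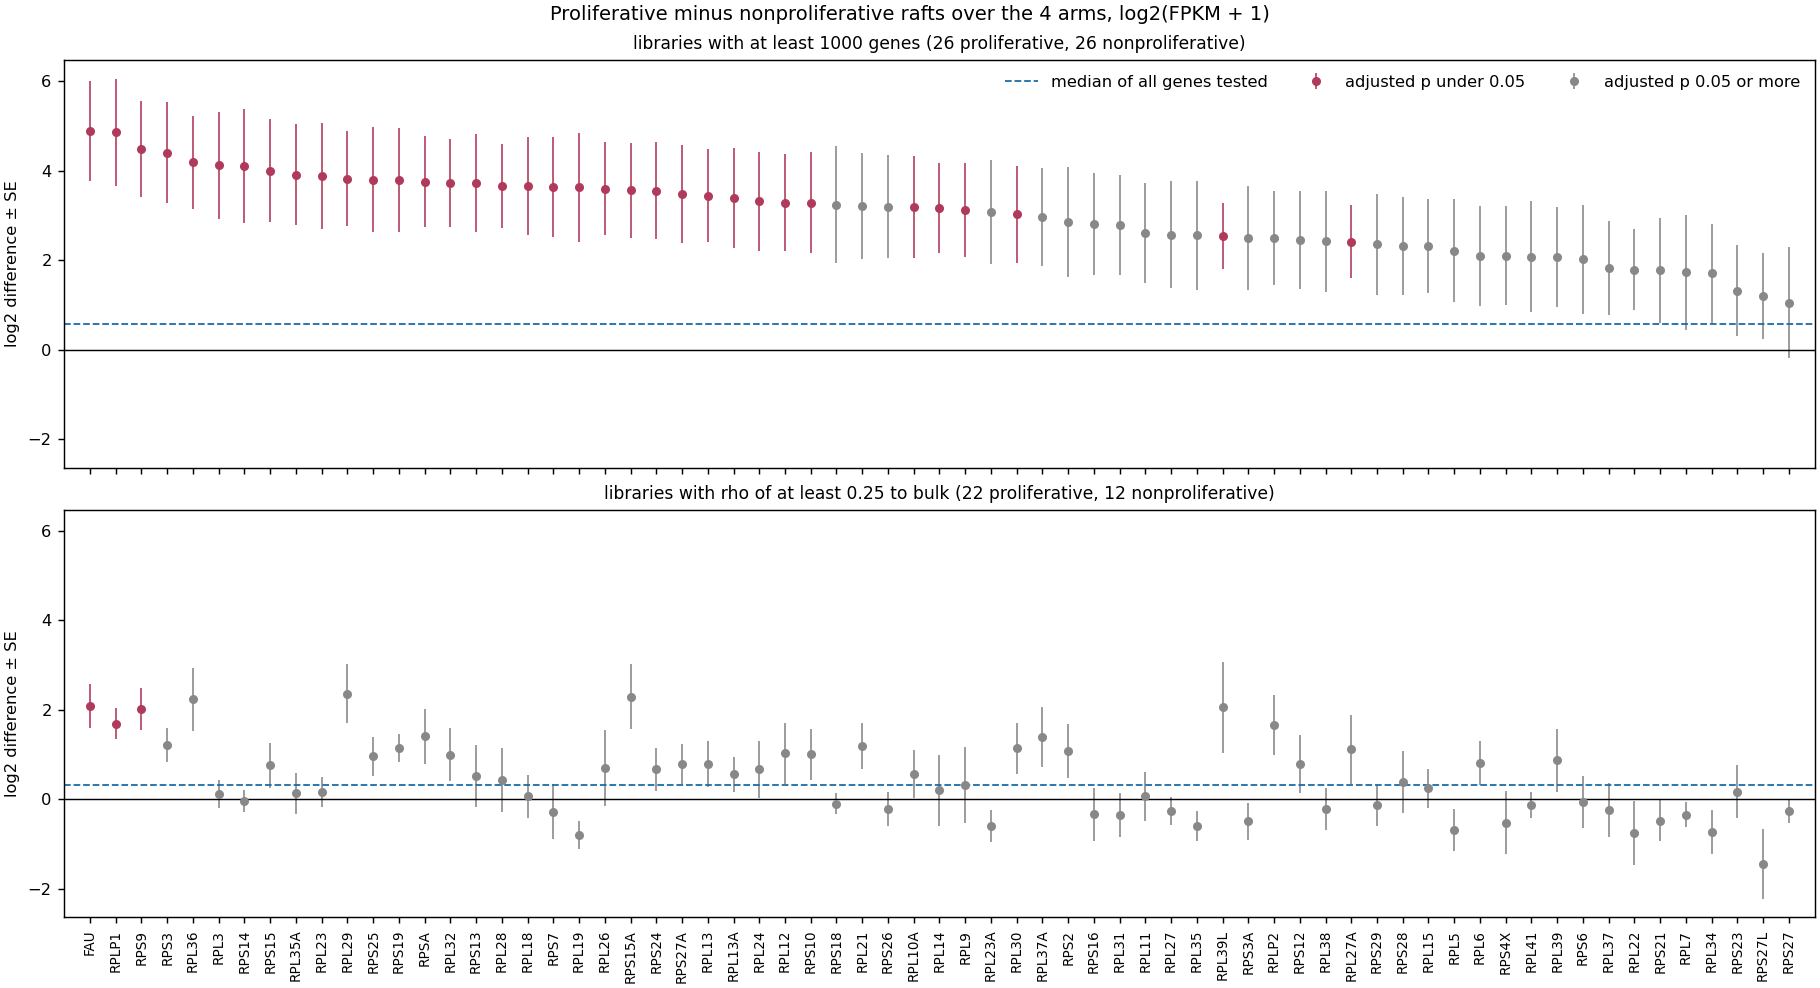
Log2 difference ± SE of proliferative minus nonproliferative rafts for 67 of the 72 members, ordered by the upper panel, in the 52 libraries with at least 1000 genes (top) and the 34 bulk-like libraries (bottom). Red marks an adjusted p under 0.05 and the dashed line the median of all genes, and all 72 members have a median of 3.18 in the upper and 0.46 in the lower panel's libraries.

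FAU, which encodes RPS30 fused to a ubiquitin-like protein, had the smallest p. It ran from 0 to 4252 FPKM in 26 proliferative libraries (median 1019, detected in 23) and from 0 to 1262 FPKM in 26 nonproliferative libraries (median 0, detected in 12). Its log2 difference was 4.88 ± 1.12 (SE, limma adjusted p = 0.0037), and 2.09 ± 0.49 in bulk-like libraries (adjusted p = 0.0154). RPS9 ran from 0 to 1554 FPKM in proliferative libraries (median 528, detected in 24) and from 0 to 2619 FPKM in nonproliferative ones (median 0, detected in 12), with a log2 difference of 4.49 ± 1.07 (adjusted p = 0.0047). The classes overlapped for either gene and differed in how many libraries held it.

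RPLP1, of the ribosomal stalk, was detected in 24 proliferative and 15 nonproliferative libraries, with a log2 difference of 4.86 ± 1.19 (limma adjusted p = 0.0057). RPL36 (4.18 ± 1.03), RPS3 (4.40 ± 1.12) and RPL28 (3.66 ± 0.93) complete the 6 with the smallest p. Among bulk-like libraries RPLP1 had 1.68 ± 0.35 (adjusted p = 0.0043) and RPL28 had 0.43 ± 0.71 (adjusted p = 0.84). Medians there were 2109 FPKM in proliferative and 1578 FPKM in nonproliferative libraries for RPLP1, and 105 and 97.7 FPKM in the same order for RPL28.

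At the other end RPS27, a zinc-binding small subunit protein and the fourth most abundant member in bulk, had a log2 difference of 1.05 ± 1.23 (limma adjusted p = 0.56). It ran from 0 to 5002 FPKM in proliferative libraries (median 2027) and from 0 to 34584 FPKM in nonproliferative libraries (median 2306), and was detected in 23 and 20 of 26 libraries, more nonproliferative libraries than held FAU or RPS9. Its copy RPS27L had 1.20 ± 0.96 (adjusted p = 0.38). RPS23 (1.32 ± 1.02), RPL34 (1.71 ± 1.11), RPL7 (1.73 ± 1.28) and RPS21 (1.78 ± 1.17) were the other members with the largest p. In bulk-like libraries RPS27 stood at -0.27 ± 0.26 and RPS27L at -1.44 ± 0.78, neither past the threshold (adjusted p = 0.71 and 0.46).

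Groups of members by role showed the same mix. Of the MDM2-binding proteins RPL5, RPL11 and RPL23, which link ribosome assembly to p53, only RPL23 passed the test over arms, with 3.87 ± 1.19 (limma adjusted p = 0.024), while RPL5 had 2.21 ± 1.15 and RPL11 2.60 ± 1.12. Its difference in bulk-like libraries was 0.17 ± 0.33. Of the fusions with ubiquitin or a ubiquitin-like protein both FAU and RPS27A (3.48 ± 1.09, adjusted p = 0.027) passed, and of the stalk proteins RPLP1 passed and RPLP2 (2.49 ± 1.05, adjusted p = 0.089) did not. RPS3 and RPS9 of the mRNA entry passed, and their partner RPS2 did not. RPL3 (4.12 ± 1.20), RPSA (3.75 ± 1.01) and RPS19 (3.78 ± 1.16), the last the gene most often mutated in Diamond-Blackfan anaemia, passed as well. RPS6 (2.02 ± 1.22), RPS4X (2.10 ± 1.11), RPL22 (1.79 ± 0.90), RPL39 (2.07 ± 1.12) and RPL41 (2.08 ± 1.24) did not. By subunit, 22 of 40 large and 17 of 32 small subunit members passed.

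RPL39L was seen in few libraries and still passed over arms, at 2.54 ± 0.73 (limma adjusted p = 0.016). It was detected in 15 of 26 proliferative libraries (median 50.6 FPKM, highest 245) and in 4 of 26 nonproliferative libraries (median 0, highest 210). The same 15 and 4 detections fell within the bulk-like libraries, where its difference was 2.05 ± 1.02 (adjusted p = 0.40). Its parent RPL39 was detected in 22 proliferative and 16 nonproliferative libraries of the 52. Coding GC content ran with the proliferation difference at a rho of 0.46 across 71 members (0.07 across 9460 genes). Of the 23 members with the highest GC content 16 were called, of the 24 with middle 12 and of the 24 with the lowest 10. In bulk-like libraries the rho was 0.29 across 71 members and 0.17 across 8605 genes. There 4 members with the highest, 0 with middle and 0 with the lowest GC content were called.

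**Figure D5:**
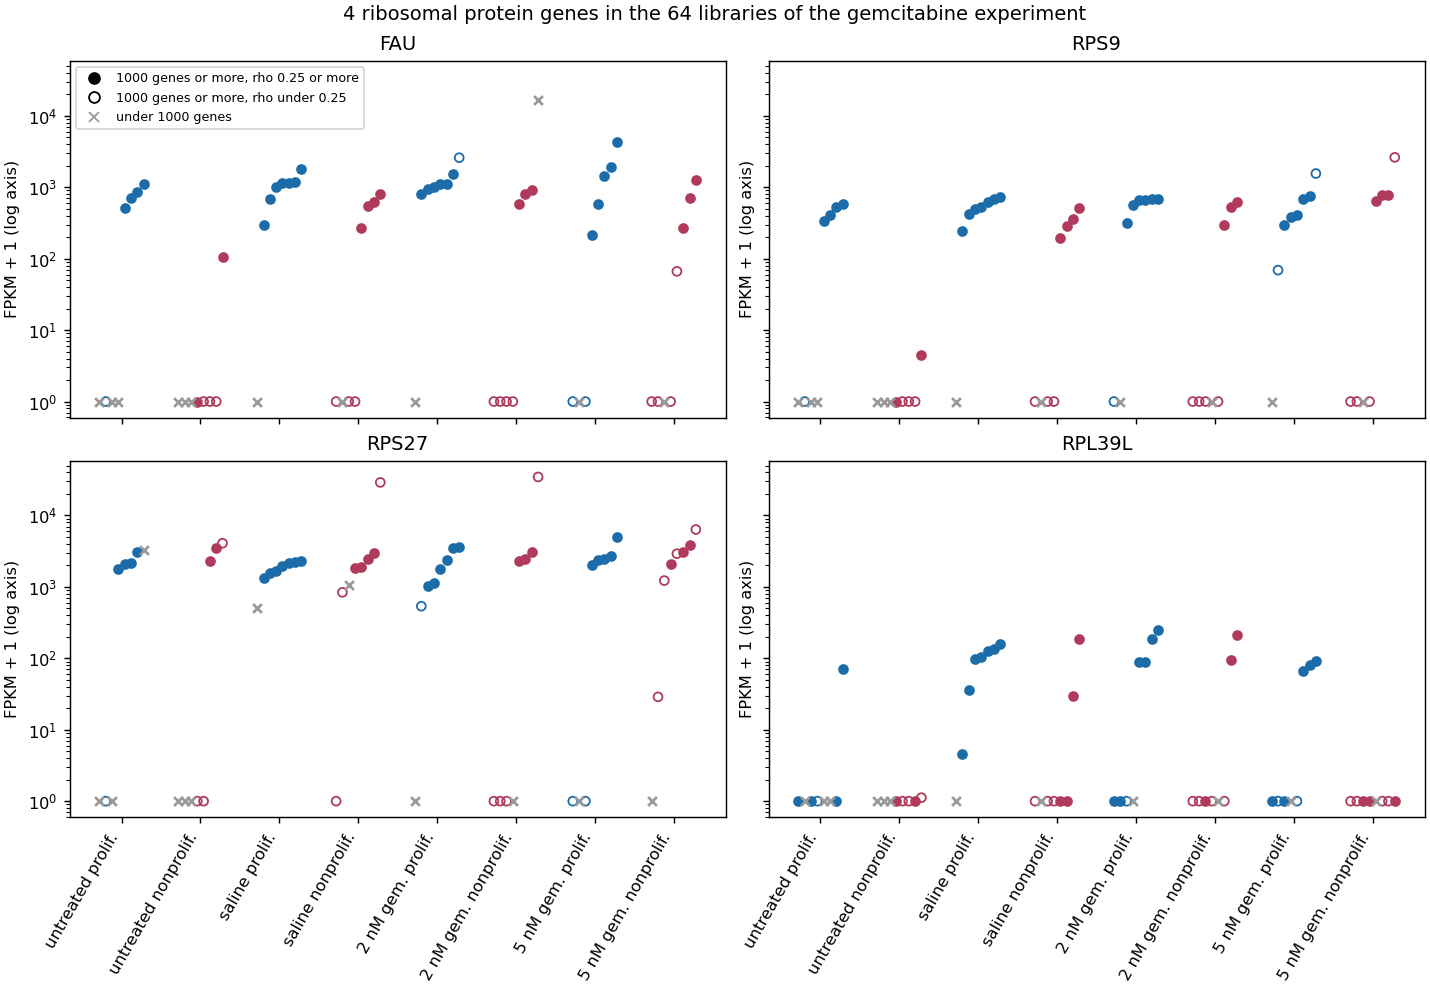
FPKM + 1 on a log axis of FAU, RPS9, RPS27 and RPL39L in each of the 64 gemcitabine experiment libraries, with filled circles for at least 1000 genes and a rho of at least 0.25, open circles for at least 1000 genes and a lower rho, and crosses for fewer genes. Among filled circles FAU and RPS9 are at 0 in 1 untreated nonproliferative raft and RPS27 in none, and most open circles of FAU and RPS9 are at 0.

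Within single arms no member passed limma's test for proliferative against nonproliferative rafts, with 5 libraries of each class without treatment and 7 in each other arm. At an unadjusted p under 0.05, 7 members passed without treatment, 13 with saline, 40 at 2 nM and 7 at 5 nM, all out of 72. The same mark was passed by 6.99% of all genes without treatment, 11% with saline, 11.7% at 2 nM and 8.91% at 5 nM. The median member difference was 2.54 without treatment, 3.65 with saline, 4.29 at 2 nM and 2.02 at 5 nM. All genes had medians of 0.66, 0.44, 0.65 and 0.54 in the same arms. Of all genes, 0% were called higher without treatment, 0% with saline, 0.0173% at 2 nM and 0% at 5 nM. The member with the smallest p was RPS9 without treatment (6.62 ± 2.42, adjusted p = 0.55), RPL39L with saline (4.24 ± 1.39, adjusted p = 0.41), RPLP1 at 2 nM (6.73 ± 2.28, adjusted p = 0.35) and RPL28 at 5 nM (5.94 ± 1.78, adjusted p = 0.26). In bulk-like libraries 6 members, FAU, RPL29, RPLP1 and RPS9 among them, were called in the untreated arm, where 4 proliferative and 2 nonproliferative libraries were left, as were 0.565% of all genes. At 5 nM 1 member, RPL36, was called higher, as were 0.446% of genes. The effect of proliferation at 5 nM minus that with saline was called for no member by limma (1 at an unadjusted p under 0.05, as were 3.14% of genes) and for 0% of genes, with RPS21 first (-7.50 ± 3.16, adjusted p = 1.00).

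In the 52 libraries no member passed the test for gemcitabine against saline. In proliferative rafts, 5 nM against saline gave a median member difference of -1.65, with 67 of 72 negative, and a median of -0.70 over all genes. limma called 0 members, with 1 at an unadjusted p under 0.05 (14.9% of all genes), and of all genes 0% higher and 0.0692% lower. In nonproliferative rafts the median was -0.03 over members and -0.84 over all genes, with 0 members called, 1 at an unadjusted p under 0.05 (13.1% of all genes) and 0% of genes higher. At 2 nM against saline limma called 0 members in either class, and 0% of genes higher in proliferative and 0% in nonproliferative rafts. No member had an unadjusted p under 0.05 there, against 3.81% of all genes in proliferative and 5.3% in nonproliferative rafts. The medians were -0.44 in proliferative and -1.16 in nonproliferative rafts. Saline against no treatment in proliferative rafts had a median of 2.17 (all genes 0.96), with 0 members called by limma, 1 at an unadjusted p under 0.05 (14.2% of all genes) and 0.00865% of genes higher.

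RPL39L came first in 3 of these contrasts, which share the saline libraries. In proliferative rafts it was detected in 1 of 5 libraries without treatment (highest 70.1 FPKM), 7 of 7 with saline (3.64 to 158, median 103), 4 of 7 at 2 nM (0 to 245, median 86.5) and 3 of 7 at 5 nM (0 to 91.9, median 0). Saline minus no treatment was 4.78 ± 1.52 (limma adjusted p = 0.21), 2 nM minus saline -1.95 ± 1.39 (adjusted p = 1.00) and 5 nM minus saline -3.31 ± 1.39 (adjusted p = 0.24). In nonproliferative rafts RPS15A came first at 5 nM (-4.17 ± 2.02, adjusted p = 0.36), detected in 3 of 7 libraries at 5 nM and 6 of 7 with saline. RPL27 came first at 2 nM (-3.65 ± 2.28, adjusted p = 0.91), detected in 3 of 7 libraries at 2 nM and 6 of 7 with saline. Among bulk-like libraries RPL36 was lower at 5 nM than with saline in nonproliferative rafts (-6.63 ± 1.45, adjusted p = 0.0098), from 3 and 4 libraries, where 0.962% of all genes were lower. It was listed at 0, 0 and 43.2 FPKM in the 3 libraries at 5 nM, against 712, 394, 292 and 182 FPKM with saline.

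A list of 23 names held translation factors and other genes that have pyrimidine tracts or act with the ribosome, and 18 were tested. GNB2L1 and RACK1 on it name the same gene, and start sequences of the list were not read. Over arms 8 of the 18 were called higher in proliferative rafts by limma and none lower, against 11.4% of all genes higher, with a median of 2.54. The other 10 did not pass, among them EEF2, the translocation factor, with 1.12 ± 0.89 (limma adjusted p = 0.38). Of the called genes EIF3K, a subunit of initiation factor eIF3, rose by 3.85 ± 0.94 (limma adjusted p = 0.0057) and EEF1D, an exchange factor for the elongation factor that delivers tRNA, by 3.85 ± 1.03 (adjusted p = 0.011). NPM1, a nucleolar chaperone of ribosome assembly, had 3.05 ± 1.22 (adjusted p = 0.076). Among bulk-like libraries none of the 18 was called and the median was 0.50. Between 1-cell rafts and 1-cell C1 captures their median difference was -0.28, and between 1-cell rafts and bulk -0.86.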

How the data were processed

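Per the labels' protocols, cDNA was amplified with SMARTer chemistry and turned into 120 libraries by Nextera XT. Reads were quantified with RSEM against hg19, per the submitters' processing notes, and the authors deposited 1 table of FPKM values, with no version given in the sources used here. RSEM shares reads that match several transcripts among them, so pseudogenes and near copies can take or give reads. No counts were used, and read depth is unknown.

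A gene was detected at an FPKM of 1 or more. Log2(FPKM + 1) went into 1 limma fit (3.58.1, in R 4.3.3, with a mean-variance trend) of the 8 gemcitabine groups. It took 52 libraries holding 1000 or more genes, and genes seen in 8 or more libraries. Tests were two-sided, with p adjusted by Benjamini-Hochberg and called under 0.05. Fold changes on this scale understate changes of low genes. In the isolation experiment each group counts as 1 sample, so differences of means are given with no test, for genes detected in at least 5 libraries (4 with bulk RNA). Alternatives were a pseudocount of 0.1, all 64 libraries, libraries with a rho of at least 0.25 to bulk, no filter, quantile scaling, rescaling to a common total, genes detected as a covariate, each raft set and each library left out. The fit was tested on simulated normal values drawn independently for each gene. That setting lacks libraries in which members are at 0 together, so it does not show how the fit behaves there. Tables and figures used scipy 1.17.1, numpy 2.4.6, pandas 2.3.3 and matplotlib 3.10.9 under Python 3.11.15.

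Members, gene lists and tests were chosen with earlier results of these data known. Members named were the 6 highest and 6 lowest in bulk, the 6 with the smallest p among those called and the 6 with the largest p over arms, the called members or the member with the smallest p elsewhere, the 5 highest and 5 lowest differences of the isolation comparisons, and a list chosen by function. RPL29, RPS25 and RPS28 were named after their values were seen. Start sequences come from RefSeq (GRCh38.p14), and no coordinates were taken over from the files. Protein sequences were not used here. Counts and medians cover all members, but values of some single members are not reported here.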

Additional observations from a re-analysis of the deposited data

Results flagged for a closer look

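In each group of 4 to 10 libraries, a library was picked out where its gap to the nearest other library was large for the group's range. Among 136 such groups of values 10 stood out. The rule flags about 1 in 20 by chance for normally distributed values. Member counts near their ceiling are not of that kind, and the single genes were picked by their values in these data. The 10 can therefore not be set against that rate. Members detected were lowest at 71 in 1-cell raft replicate 3, which lacked RPL39L, at 71 in 2-cell C1 replicate 2 and at 12 in proliferative saline replicate 5, where the other 7 saline rafts had 71 or 72. The members' share was highest, at 23.8% of FPKM, in proliferative 5 nM replicate 8, against 6.88% to 13.3% in the other 7. RPL39L stood at 163 FPKM in 1-cell C1 replicate 3, against 0 to 22.8 in the other 4 captures, and at 269 FPKM in 2-cell raft replicate 8, which also had the highest RPS2 at 2948 FPKM. In 2-cell raft replicate 3 RPL13 reached 411 FPKM and RPL27A 62.9 FPKM, and in 1-cell raft replicate 5 RPS29 reached 1307 FPKM.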

How the results depend on the processing

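Over arms, 39 members were called for proliferation, and 13 with all 64 libraries, 4 in the libraries with a rho of at least 0.25 and 15 with no filter. Quantile scaling gave 23, genes detected as a covariate 5, the pseudocount of 0.1 41 and rescaling 37. Of all genes, 11.4% were called higher in the main fit, 0.714% in the rho set and 1.86% with the covariate. Shares of all genes under the other alternatives are not reported here, so those counts do not tell members from genes in general. Leaving out 1 library gave 28 to 50, and limma called 0 in all other contrasts. In the rho set, an alternative chosen after seeing the data left out each library and gave 4 to 8. That set gave 6 members in the untreated arm, 1 at 5 nM and 1 for 5 nM against saline in nonproliferative rafts, where 0 were called before. It turned the sign of RPL34 (-0.73), RPS21 (-0.48), RPL7 (-0.35), RPS27L (-1.44), RPS27 (-0.27), RPL5 (-0.69), RPL22 (-0.76), RPS6 (-0.060), RPS4X (-0.52) and RPL41 (-0.13) over arms and of RPL27 at 2 nM (0.32). The cause was not tested. Of the 6 members with the smallest p, FAU and RPS9 were called under all 7 alternatives. The median of all genes over arms was 0.58, and 0.19 with quantile scaling. For C1 captures minus bulk the member median of -0.45 was -0.071 with quantile scaling, and that of all genes was -0.071 as well. By a log2 size of 1 or more, 8 members were then higher and 10 lower, as were 3396 and 3571 of 11229 genes. Members lower by that size in 1-cell rafts than in bulk numbered 34, and 6 with quantile scaling and 20 with rescaling. Of 10532 genes, 3640, 2577 and 3857 were lower by it in the same order. Leaving out 1 bulk or C1 library gave medians of -0.54 to -0.36 for rafts minus C1, -1.07 to -0.82 for rafts minus bulk and -0.58 to -0.30 for C1 minus bulk, and shares of 14.4% to 15.7% in bulk, 4.70% to 12.6% in empty, 13.5% to 13.9% in 2-cell and 13.7% to 15.0% in 1-cell C1 libraries. For 2-cell minus 1-cell rafts RPLP2 was -0.18 and RPL31 0.019 in the first set, RPS27L 0.015 and RPL34 0.092 in the second. Members above 0 FPKM numbered a median of 73 in 1-cell C1 captures. No paired analysis was possible because the labels give no numbers that pair rafts across groups.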
